A study of Homo sapiens with 6 samples.

Results

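GATA3, FOXA1, SPDEF, XBP1, TFAP2A, TFAP2B, TFAP2C, MYB and TBX3 are transcription factors of the luminal lineage of the breast, and FLJ45983 is the transcript read from the strand opposite GATA3, now named GATA3-AS1. These 10 genes were chosen by name, with earlier results of these data known. Every array probe that carries 1 of the 10 names was included, which gave 14 of 34127 probes. They were measured in 2 isogenic lines of T47D, an estrogen receptor positive (ER+) human breast cancer cell line. Pure luminal (pLUM) cells came from a T47Dco xenograft grown in a mouse given estradiol (E), were kept in 1 nM E and had received 1 nM E for 72 h before RNA was taken. Pure luminobasal (pLB) cells came from a tumour grown under E plus progesterone and were cultured without estrogen (estrogen withdrawn, EWD). Both lines were obtained by sorting on claudin 3 (CLD3) and CD49f, were re-sorted 2 times and were grown in 5% charcoal-stripped serum. RNA came from 3 sorts of each line, for which cells were stained for cytokeratin 5 (CK5), and which CK5 fraction was hybridized is not stated. Each line is a single derived line, so that p-values measure the spread between sorts of that line, and line, hormone and tumour of origin coincide and cannot be told apart.

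In the normal breast, GATA3 and FOXA1 are needed for luminal cells to form and to keep their identity, and in ER+ breast cancer cells both help ER to reach its sites on chromatin. SPDEF, an ETS factor, and the AP-2 factors TFAP2A, TFAP2B and TFAP2C act beside them on luminal genes. MYB is a target of ER, and TBX3 is a T-box repressor that acts in mammary development. XBP1 is induced by estrogen and, once its mRNA has been spliced by the sensor IRE1, switches on chaperones of the endoplasmic reticulum. GATA3-AS1 is a long noncoding RNA whose first exon lies next to GATA3 and which is transcribed away from it.

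Signal was measured on Agilent arrays with a single dye. The 75th percentile of the intensity was 449 to 869 per array, 21285 to 22775 probes per array were well above background, and no spot of a gene was saturated. Levels are given as log2 of the intensity relative to that percentile of the array, and they are not comparable between probes. A probe entered the test if 3 or more of the 6 arrays gave it a signal well above background, and it was called if the lines differed at least 2-fold with a limma adjusted p under 0.05. The luminal markers KRT8, KRT18, KRT19, ESR1, PGR, CLDN3 and MUC1 summed to 339 to 378 times the percentile on pLUM arrays and 100 to 107 on pLB arrays, with 6 of 7 called lower in pLB. The luminobasal markers KRT5, ITGA6, EGFR, TP63 and CDH3 summed to 1.03 to 1.24 on pLUM arrays and 62.2 to 84 on pLB arrays, and all 5 were called higher. CLDN3, ITGA6 (CD49f) and KRT5 encode proteins used for sorting. Of 8 stromal, endothelial and blood markers, COL1A2, VWF and CD68 were called higher in pLB, COL1A2 by at least 11.5-fold. COL1A1 and PTPRC had log2 fold changes of -0.56 and -0.47 and were not called. PDGFRB, DCN and PECAM1 were well above background on no array. The sums were 0.991 to 1.1 in pLUM and 0.947 to 1.43 in pLB, and COL1A1 was the largest term on every array. The part of such cells in the results was not tested. As in any bulk sample, fewer cells of a type and less RNA per cell cannot be told apart.

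Of the 10 genes, 8 were lower in pLB and 0 were higher. Across all 17670 tested genes, 23% were lower and 22.7% were higher by the same rule. All 14 probes passed the filter on dim signals, 11 of them on all 6 arrays, and 9 of those 11 were lower and 0 higher in pLB. Of all tested probes, 23.7% were lower and 21.9% higher, but these include probes well above background on as few as 3 arrays. No array of one line overlapped with the other line for any of the 10 genes or 14 probes, which held for 69.1% of all genes and 68.1% of all probes. The median log2 fold change of the 10 genes was -3.07, against 0.04 for all genes. Because the 10 genes were chosen with earlier results of these data known, the contrast with all genes is descriptive and not a test. The called decreases ranged from 4.82-fold for FOXA1 to 1330-fold for FLJ45983. TFAP2B and the representative probe of TBX3, the one with the higher mean, did not reach a 2-fold difference, whereas the second TBX3 probe did. For the representative probes of the 10 genes, the SD between the 3 arrays of a line was 0.03 to 0.35 in pLUM and 0.02 to 0.48 in pLB on the log2 scale. Second probes reached a larger SD, at most 0.42 in pLUM and 1.09 in pLB, both for MYB.

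**Figure D1:**
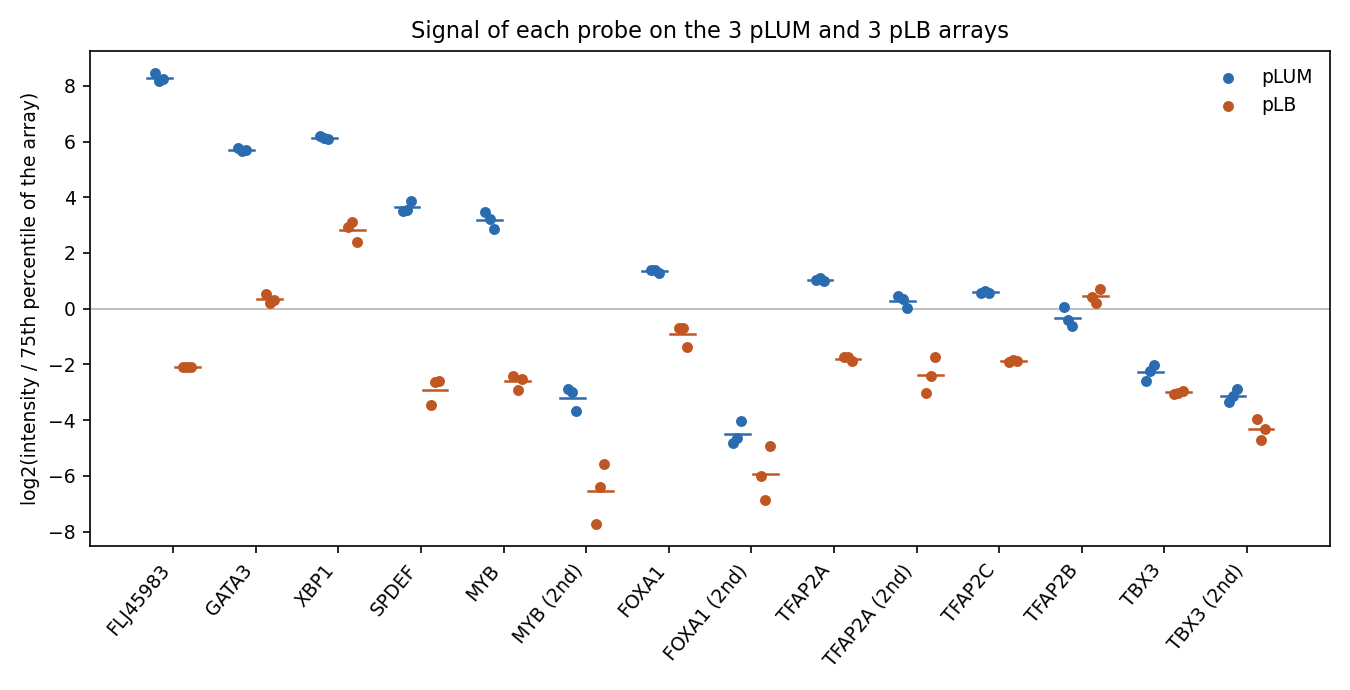
Each point is 1 array, plotted as log2 of the intensity relative to the array's 75th percentile, for each of the 14 probes; short lines are means of 3 pLUM (blue) or 3 pLB (orange) arrays, and levels of different probes are not comparable. The lines separate on every probe, with the widest gap for FLJ45983 and with pLB above pLUM only for TFAP2B.

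Among the 10 genes, the largest change was at the GATA3 locus. FLJ45983 was read by 1 probe on the minus strand at chr10:8092413-8092472 (hg19), and GATA3 by 1 probe on the plus strand at chr10:8117072-8117131, with 24599 bases between them. The FLJ45983 probe is shown because the largest fall among the 10 genes rests on it alone.
FLJ45983 probe: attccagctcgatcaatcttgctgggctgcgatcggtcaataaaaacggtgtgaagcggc
In RefSeq (GRCh38.p14), the outermost of 3 annotated GATA3-AS1 starts lies at 8053484 on the minus strand of chromosome 10, and the next GATA3 start on the plus strand lies at 8053641. The 156 bases in between, chr10:8053485-8053640 on the plus strand, are shown because they lie between the annotated starts of both transcripts, with matches to CCAAT in capitals.
GATA3-AS1 to GATA3: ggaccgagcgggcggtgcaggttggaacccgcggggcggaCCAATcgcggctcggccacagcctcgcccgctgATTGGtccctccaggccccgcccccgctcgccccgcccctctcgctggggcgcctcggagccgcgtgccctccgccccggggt
The segment is 79.5% G and C, holds 22 CG dinucleotides and has 2 CCAAT matches, 1 on each strand. GATA3 has 5 other annotated starts, and the array cannot say which start was used.

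FLJ45983 had an intensity of 165668, 163838 and 170328 on the 3 pLUM arrays and of 206, 165 and 104 on the 3 pLB arrays. It was well above background on all 6 arrays. Its log2 level was 8.45, 8.19 and 8.23 in pLUM and -2.08, -2.08 and -2.11 in pLB, so that the gap between the lines was far wider than the spread within either. The log2 fold change was -10.38 with SE 0.16, a 1330-fold decrease with a 95% confidence interval of 1031 to 1715 (limma adjusted p = 1.44e-07). Only 2 of 17670 genes had a larger fitted fall. With normexp background correction, the decrease was 827-fold.

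GATA3 itself had an intensity of 25968, 28442 and 29167 in pLUM and of 1242, 806 and 554 in pLB. Its log2 level was 5.78, 5.66 and 5.69 in pLUM and 0.52, 0.21 and 0.30 in pLB. The arrays of each line lay close together and the lines did not overlap. GATA3 was 41.2-fold lower in pLB, with a 95% confidence interval of 31.7 to 53.5 and a limma adjusted p of 6.32e-07, and 136 genes had a larger fitted fall.

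The fitted fall of the antisense transcript was larger than that of GATA3 on the same arrays. The log2 difference between the FLJ45983 and GATA3 probes was 2.67, 2.53 and 2.55 on the pLUM arrays and -2.59, -2.29 and -2.41 on the pLB arrays. The shift of -5.01 corresponds to a fall 32.3-fold deeper for FLJ45983, and the 3 arrays of each line did not overlap. The two-sided exact permutation p was 0.1, the smallest that 3 arrays against 3 can give, and 0.1 after adjustment over the 3 such pairs compared. On the 4 arrays of slide 1 alone the shift was -5.17. The comparison shows unequal change of both probes and sets no level of FLJ45983 against that of GATA3.

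FOXA1, a pioneer factor that opens chromatin for ER, fell less than GATA3. Its main probe at chr14:38059546-38059605 (hg19) was printed as 10 spots per array, which differed within an array by a coefficient of variation of 3.1% to 10%. Its log2 level was 1.37, 1.38 and 1.28 in pLUM and -0.71, -0.69 and -1.37 in pLB. The lowest value was that of pLB replicate 3, and the lines did not overlap. FOXA1 was 4.82-fold lower in pLB, with a 95% confidence interval of 3.36 to 6.9 (limma adjusted p = 0.000106). A dim probe at chr14:38064461-38064520 was well above background on all 3 pLUM arrays and on no pLB array, which sets a bound of at least 1.73-fold lower (limma adjusted p = 0.0337). A bound compares the bright line with the higher of the dim probe's own signal and the lowest signal well above background on each array. The call on that probe was lost without pLUM replicate 1, 2 or 3, without pLB replicate 1 or 2 and in 5 other alternatives, where its log2 fold change was -0.79 to -1.59.

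SPDEF, known for its role in secretory epithelial cells, had the largest fitted fall among the protein-coding members. The confidence intervals of SPDEF and MYB overlapped, and this pair was not compared within arrays. The SPDEF probe lies at chr6:34506107-34506166 (hg19). The log2 level was 3.52, 3.55 and 3.85 in pLUM and -3.45, -2.65 and -2.60 in pLB. All 3 pLB arrays lay more than 6 log2 units below the lowest pLUM array. SPDEF was 93.2-fold lower in pLB, with a 95% confidence interval of 60.6 to 143 (limma adjusted p = 1.88e-06). With normexp background correction, the decrease was 51-fold.

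MYB, the proto-oncogene that ER holds active in luminal cells, was lower on both of its probes. The probe at chr6:135540223-135540282 (hg19) had a log2 level of 3.48, 3.22 and 2.84 in pLUM and of -2.41, -2.90 and -2.51 in pLB. The lines lay more than 5 log2 units apart. This was a 55.4-fold decrease, with a 95% confidence interval of 38.1 to 80.3 (limma adjusted p = 1.71e-06), which became 32.8-fold with normexp background correction. The second probe, at chr6:135516143-135516202, belongs to another transcript and was above background in pLUM only, so that it gives a bound of at least 4.29-fold lower (limma adjusted p = 0.00106). Its fitted log2 fold change of -3.37 moved between -4.52, with slide blocked, and -1.29, under normexp.

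XBP1 was well above background in both lines. Its probe at chr22:29190733-29190792 (hg19) was printed as 10 spots, with a coefficient of variation within an array of 1.73% to 2.32%. The log2 level was 6.21, 6.11 and 6.08 in pLUM and 2.94, 3.12 and 2.40 in pLB. The spread among pLB arrays, with replicate 3 lowest, was wider than that among the spots. XBP1 was 9.92-fold lower in pLB, with a 95% confidence interval of 6.95 to 14.1 (limma adjusted p = 1.63e-05). The probe was not tested for its ability to tell spliced from unspliced XBP1 mRNA.

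In the AP-2 family, TFAP2A and TFAP2C fell, whereas TFAP2B was not called. TFAP2A had a log2 level of 1.03, 1.1 and 1 in pLUM and of -1.73, -1.75 and -1.89 in pLB at chr6:10397026-10397085 (hg19). It was 7.14-fold lower in pLB, with a 95% confidence interval of 5.58 to 9.12 (limma adjusted p = 6.21e-06). Its second probe, at chr6:10402259-10402318, was 6.33-fold lower (limma adjusted p = 0.000324), and the log2 fold change of that probe went from -2.66 to -3.30 with slide as a block. TFAP2C, the AP-2 factor most closely tied to ER and luminal identity, was measured at chr20:55213646-55213705 by 10 spots, of which 1 was left out on pLB replicate 2. Its log2 level was 0.58, 0.63 and 0.56 in pLUM and -1.91, -1.84 and -1.88 in pLB with an SD of 0.03 in both lines, so that the gap between the lines was far wider than the spread within them. TFAP2C was 5.53-fold lower in pLB, with a 95% confidence interval of 4.36 to 7 (limma adjusted p = 9.66e-06).

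For TFAP2B, which is also found in normal luminal cells, the values ran the other way. At chr6:50815178-50815237 (hg19) its log2 level was 0.06, -0.40 and -0.62 in pLUM and 0.41, 0.21 and 0.70 in pLB. The pLB arrays were all above the pLUM arrays, but by as little as 0.15. The fitted ratio was 1.69-fold, with a 95% confidence interval of 1.16 to 2.48 (limma adjusted p = 0.0242), which missed the 2-fold threshold. Within the arrays, the change of TFAP2B exceeded that of TFAP2A by 3.60 on the log2 scale, or 12.1-fold, and that of TFAP2C by 3.23, or 9.36-fold. In both pairs the lines did not overlap, and the two-sided exact permutation p was 0.1, the smallest possible, and 0.1 after adjustment over the 3 pairs.

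The probes of TBX3 fell on either side of the threshold. The representative probe, at chr12:115109654-115109713 (hg19), had a log2 level of -2.58, -2.22 and -2.03 in pLUM and of -3.05, -3.01 and -2.94 in pLB. The fitted ratio was 1.66-fold lower, with a 95% confidence interval of 1.22 to 2.26 (limma adjusted p = 0.0119), and was not called. The other probe, at chr12:115108840-115108899, had a log2 level of -3.34, -3.15 and -2.87 in pLUM and of -3.94, -4.70 and -4.32 in pLB, and was well above background on 2 of the 3 pLB arrays. It was 2.3-fold lower and was called (limma adjusted p = 0.00362), but this call was lost when slide was a block and under normexp. Both probes lay lower on every pLB array than on any pLUM array.

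**Figure D2:**
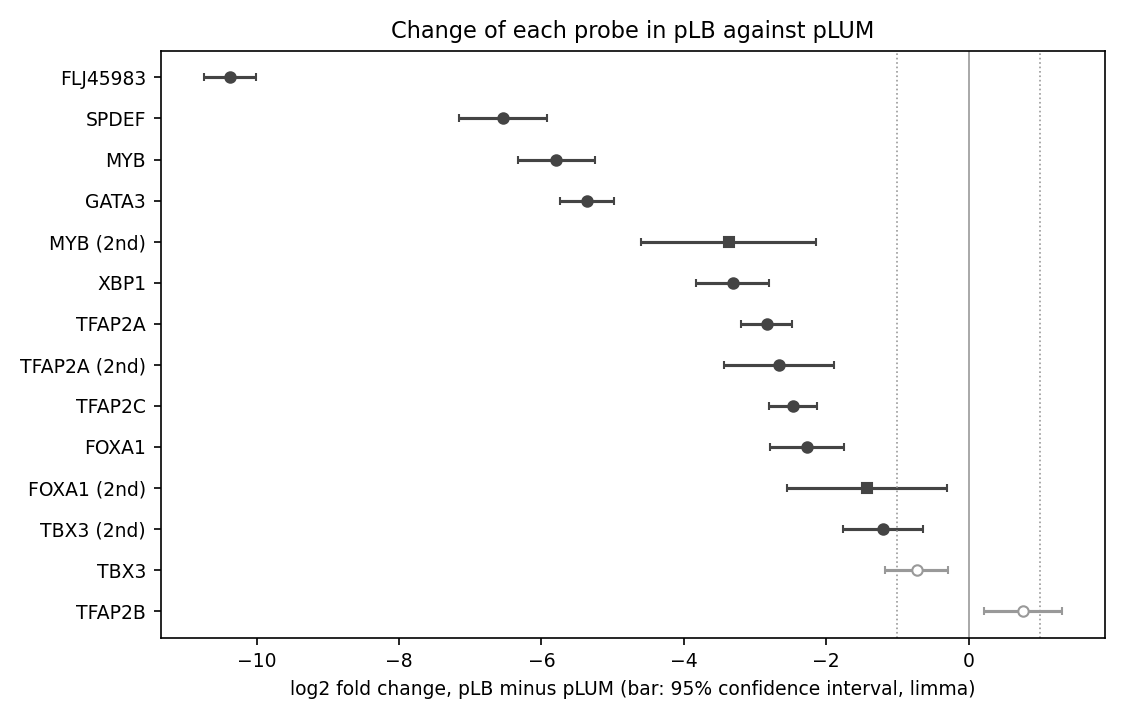
Points are the log2 fold change of each of the 14 probes (pLB minus pLUM, 3 arrays each) and bars the 95% confidence interval; filled symbols were called, squares mark probes well above background on no pLB array and dotted lines a 2-fold change. FLJ45983 stands at -10.38, apart from SPDEF at -6.54, and only TFAP2B lies above 0.

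Slide 1 carried all pLUM arrays and 1 pLB array, replicate 1, whereas the other pLB arrays were on slide 2. With slide as a block, so that the lines are compared through pLB replicate 1, the log2 fold change was -10.37 for FLJ45983, -7.09 for SPDEF, -5.59 for MYB, -5.19 for GATA3, -3.19 for XBP1, -2.78 for TFAP2A, -2.50 for TFAP2C and -2.05 for FOXA1. The same count of 8 lower and 0 higher was found. It was also found when any 1 array was left out.

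**Figure D3:**
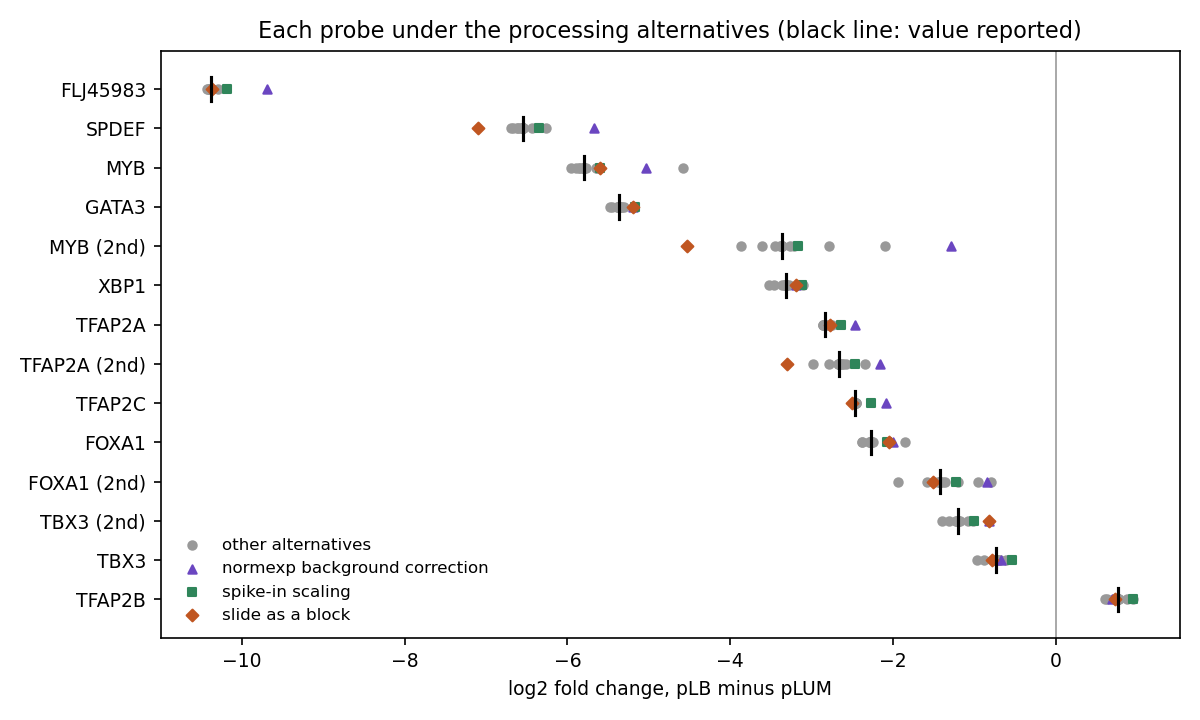
Each point is the log2 fold change (pLB minus pLUM) of 1 of the 14 probes under 1 processing alternative, and black lines are the values reported. No probe changes sign, and the second MYB probe ranges from -4.52 to -1.29.

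Relatives of the 10 genes, that is other GATA, FOXA, AP-2, MYB and T-box genes with the epithelial ETS factors ELF3, ELF5 and EHF, were examined next. Of 17 such genes, 13 were tested, 7 were lower and 1 was higher in pLB, beside 23% and 22.7% of all genes. The median log2 fold change was -2.0, and it ranged from -2.23 to -0.30 across the alternatives, with the weakest value when dim probes were not filtered. ELF5, a driver of the alveolar luminal lineage, was at least 42.8-fold lower (limma adjusted p = 1.14e-06). EHF had a log2 level of 3.0, 2.81 and 2.37 in pLUM and of -2.73, -2.20 and -1.85 in pLB and was 31.6-fold lower, and MYBL1, a relative of MYB, was 30.3-fold lower. GATA5 was at least 12.8-fold lower, with log2 levels of -1.70, -1.53 and -1.62 in pLUM. TBX2, GATA2 and ELF3 were also lower.

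Not every paralog followed the member of its family. FOXA2, a pioneer factor of endoderm, was well above background on no pLUM array and had log2 levels of -2.30, -1.76 and -1.59 in pLB, which makes it at least 11.3-fold higher (limma adjusted p = 0.000437). GATA6 had a log2 fold change of 0.93 and MYBL2, a factor of dividing cells, one of 0.97, and neither was called. GATA1, TFAP2D, TBX4 and TBX5 were well above background on no array. Between 0 and 3 relatives were higher across the alternatives, with 0 when probes had to be well above background on all 6 arrays.

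Of 19 partners, that is receptors, cofactors and regulators that act with these factors, 18 were tested, 7 were lower and 3 were higher in pLB, beside 23% and 22.7% of all genes. The median log2 fold change was -0.04, and it ranged from -0.37 to 0.16 across the alternatives. PGR, the progesterone receptor, had log2 levels of 0.64, 0.78 and 0.94 in pLUM, did not stand well above background in pLB and was at least 67.5-fold lower (limma adjusted p = 8.52e-05). ESR1, which encodes ER, was 3.47-fold lower, with log2 levels of -2.38, -2.11 and -2.89 in pLUM and of -4.50, -4.76 and -3.51 in pLB. That value belongs to the probe with the highest mean of 3 tested ESR1 probes, and the others are not reported here. The paper lists a far larger fall of ER mRNA. TLE3, a Groucho corepressor, was 2.54-fold lower, and CITED2, GRHL2 and ZFPM2 were lower by just over the threshold.

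The 3 partners that were higher in pLB were CITED4, a coactivator of AP-2 factors, KCTD1, a repressor of AP-2 factors, and ERN1, which encodes the IRE1 sensor that splices XBP1 mRNA. CITED4 was 3.57-fold higher, with log2 levels of 3.71, 3.61 and 3.66 in pLUM and of 5.45, 5.51 and 5.52 in pLB. KCTD1 was 3.18-fold higher. ERN1 was well above background in pLB only and was at least 2.93-fold higher (limma adjusted p = 0.000271). The coactivators EP300 and CREBBP had log2 fold changes of 0.60 and 0.07 and were not called. With normexp background correction 3 partners were lower, and with spike-in scaling 4 were lower and 4 were higher.

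Of 18 luminal target genes, 16 were tested, 7 were lower and 1 was higher in pLB, beside 23% and 22.7% of all genes, with a median log2 fold change of -0.92. MUC1, a mucin of the luminal surface, had log2 levels of 5.16, 4.88 and 5.45 in pLUM and of -1.58, -1.89 and -1.62 in pLB and was 116-fold lower (limma adjusted p = 6.04e-07). TFF3, a secreted trefoil peptide, was 32.2-fold lower, the estrogen-induced GREB1 was 17.1-fold lower and the luminal keratin KRT19 was 6.72-fold lower. The keratins and MUC1 also stand among the luminal markers above. BCL2, an inhibitor of apoptosis induced by estrogen in luminal cells, was at least 2.9-fold higher in pLB, a call that was lost with normexp background correction.

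The other 8 luminal targets were not called. CLDN4, a tight junction protein, had a log2 fold change of 0.00 (adjusted p = 0.996) and CDH1, the epithelial cadherin, one of 0.30. KRT18 stood at -0.62, ERBB2 at -0.80 and AGR2 at -0.91. Without the 2-fold threshold, 12 of the 16 were lower and 2 were higher.

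The 16 target genes of XBP1 encode chaperones and translocation or degradation factors of the endoplasmic reticulum. While XBP1 fell, 0 of the 16 were lower in pLB and 9 were higher, beside 23% and 22.7% of all genes, and the median log2 fold change was 1.23, with a range of 0.82 to 1.42 across the alternatives. HSPA5, the chaperone BiP, had log2 levels of 0.80, 0.58 and 0.69 in pLUM and of 3.88, 3.91 and 3.66 in pLB and was 8.7-fold higher (limma adjusted p = 5.73e-06). The co-chaperone DNAJC3 was 5.44-fold higher, the disulfide isomerase PDIA4 was 4.97-fold higher and SDF2L1 was 4.23-fold higher. PDIA6, DNAJB11, HYOU1, SEC61A1 and SEC61B were higher as well.

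The degradation genes in this list did not reach the threshold. EDEM1 had a log2 fold change of -0.26, SYVN1 one of 0.15, DERL2 one of 0.06 and HERPUD1 one of 0.10. SERP1 and SEC24D stood at -0.83 and -0.70, and DNAJB9 at 0.55. Many of these chaperones are known to be induced by ATF6 as well as by XBP1, and which factor acted on them here was not tested. Between 8 and 9 were higher in every alternative, whereas without the 2-fold threshold 2 were lower.

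Of 9 factors of basal or triple-negative breast cells, 7 were tested, 6 were higher and 1 was lower in pLB, beside 22.7% and 23% of all genes. TP63 and SNAI2 passed the filter on pLB arrays only. When probes had to be well above background on all 6 arrays, 4 were tested, of which 3 were higher and 1 was lower. The median log2 fold change was 5.45, and it ranged from 2.48, with normexp background correction, to 5.74 across the alternatives. BCL11A was 153-fold higher, with log2 levels of -4.57, -4.90 and -5.33 in pLUM and of 2.51, 2.24 and 2.22 in pLB (limma adjusted p = 7.39e-07). The BCL11A probe was well above background on only 2 pLUM arrays, so that this fold rests on pLUM signals near background. TP63, the master factor of basal epithelium, was at least 32.2-fold higher, SNAI2 was at least 27.1-fold higher and TRIM29 was 43.8-fold higher. FOXC1 and SOX9 were also higher. ID4, which inhibits bHLH factors and is usually high in basal cells, was 7-fold lower, and SOX10 and EN1 were well above background on no array.

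**Figure D4:**
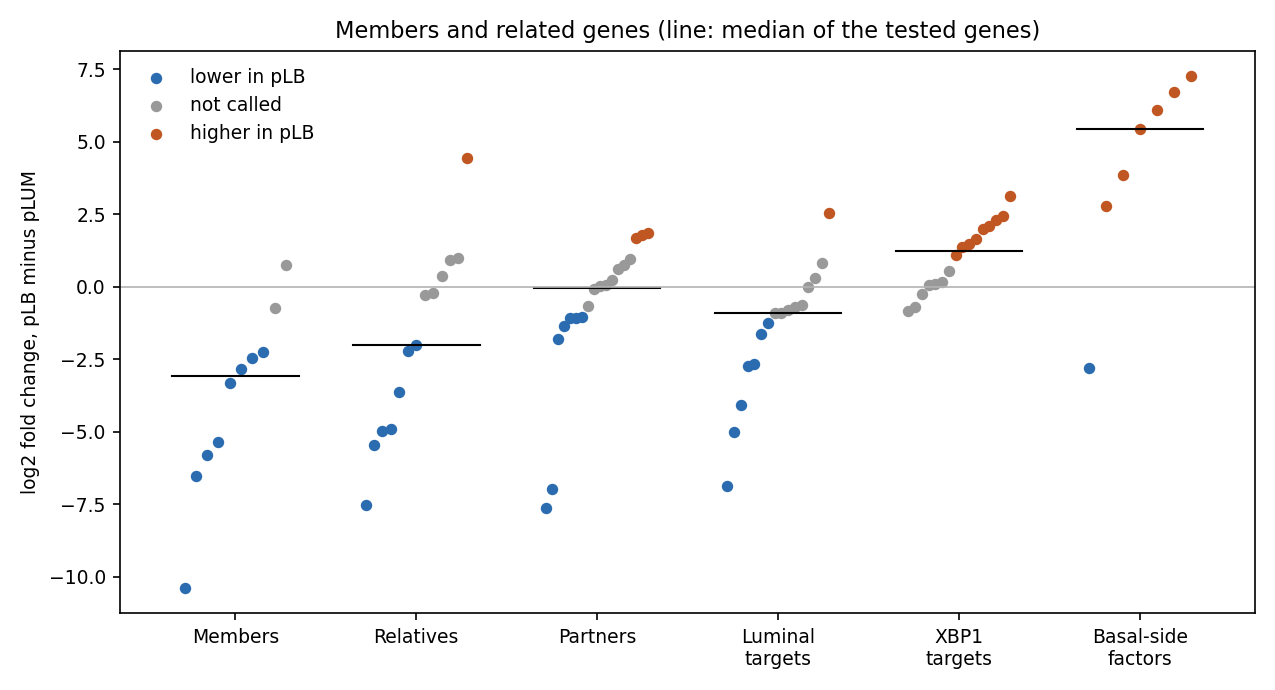
Each point is the log2 fold change (pLB minus pLUM) of 1 tested gene, coloured by its call, for the 10 members and 5 lists of related genes; black lines are medians, and genes above background in 1 line only are drawn at their fitted value. Medians are -3.07 for the members, 1.23 for XBP1 targets and 5.45 for basal-side factors.

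Genes beside the 10 loci were also compared between the lines. Whether their changes are linked to those of the members was not tested. Within 500000 bases of a member's probe (hg19), 43 genes or unnamed probes were tested, 17 were lower and 6 were higher in pLB, or 39.5% and 14.0%, beside 23% and 22.7% of all genes. The median log2 fold change was -0.32. The count of 6 became 3 without pLUM replicate 1, with normexp background correction and with median scaling.

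At the GATA3 locus, the nearest tested probe to FLJ45983 was the unnamed A_33_P3423017, whose start lies 1585 bases away. This probe lies between the FLJ45983 and GATA3 probes and is counted as a neighbour. Whether it reads GATA3-AS1 itself was not tested. It was well above background in pLUM only, with log2 levels of -3.88, -4.36 and -4.52, and was at least 2.05-fold lower in pLB (limma adjusted p = 0.00433). The unnamed A_24_P247074, 439345 bases from GATA3, was 3.14-fold lower. TAF3, ATP5C1 (now ATP5F1C) and KIN lay on the side of FLJ45983 and had log2 fold changes of 0.30, -0.32 and 0.21, none of which was called.

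Around FOXA1, all 3 tested neighbours were lower. The transcript ENST00000382320, 247033 bases away, had log2 levels of 1.45, 1.57 and 1.37 in pLUM, was not above background in pLB, and its fall was at least 108-fold (limma adjusted p = 4.21e-07). MIPOL1 was 2.7-fold lower, and LOC100129794 (now SLC25A21-AS1) was 4.73-fold lower.

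The genes nearest to SPDEF and XBP1 were lower too. PACSIN1, 3243 bases from the SPDEF probe, was 6.07-fold lower, whereas C6orf106 (now ILRUN) was 2.01-fold higher and LOC100131607 2.64-fold lower. CCDC117, 5981 bases from the XBP1 probe, was 5.69-fold lower, CHEK2 was 2.51-fold lower and ZNRF3, a ubiquitin ligase that limits Wnt receptors, was 3.97-fold higher. AHI1, 65188 bases from MYB, was 7.82-fold lower, and the other neighbour of MYB, HBS1L, had a log2 fold change of 0.65 and was not called. Near TFAP2C, C20orf107 (now FAM209B) was at least 2.84-fold lower, C20orf106 (now FAM209A) was 5.14-fold lower and the mitotic kinase AURKA was 2-fold higher. Of 6 neighbours of TFAP2A, 1 was lower, MAK, which was called on its fitted value. MAK was well above background on no pLB array, and its bound of at least 1.45-fold lies below the 2-fold threshold. TBX3 had 1 tested neighbour, an unnamed probe that was 2.04-fold higher, and TFAP2B had none.

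**Figure D5:**
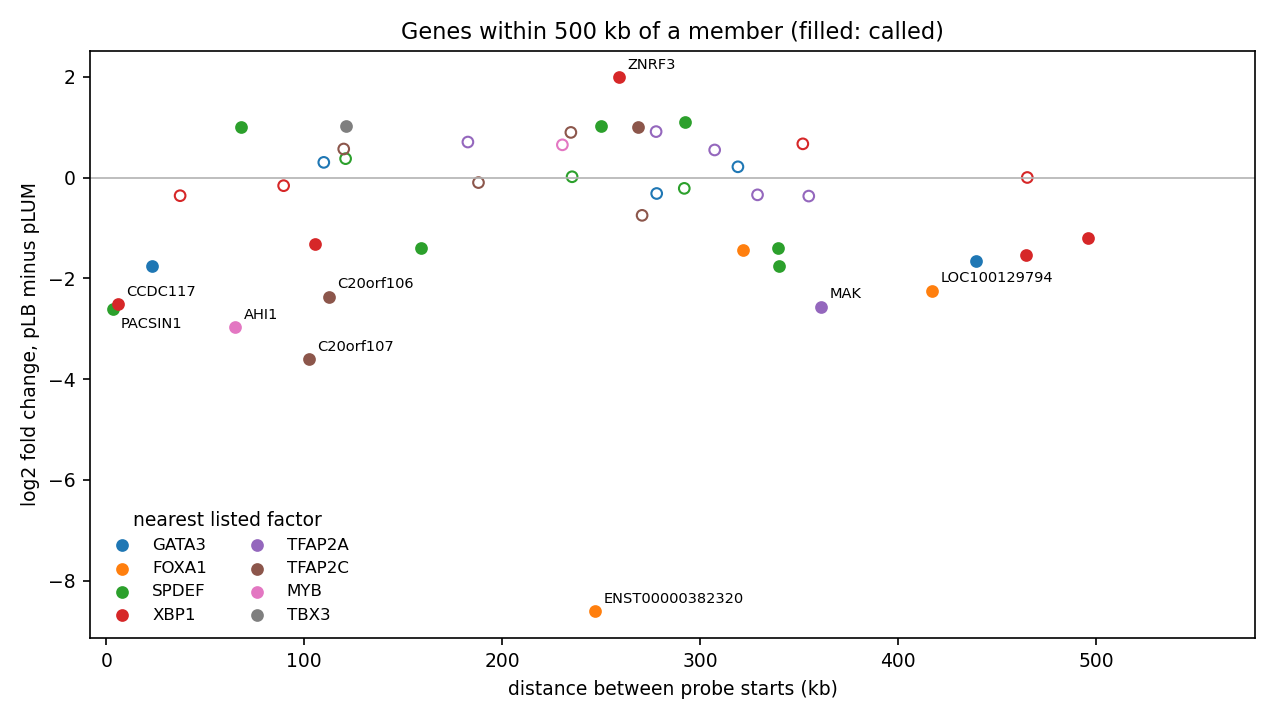
Each point is a gene or unnamed probe within 500000 bases of a member, placed by the distance between probe starts (in kb) and its log2 fold change (pLB minus pLUM), coloured by the member, filled if called and drawn at the fitted value. The lowest point, ENST00000382320, lies 247033 bases from FOXA1, and the points nearest to SPDEF and XBP1 both lie below -2.5.

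The annotated starts were searched for short motifs in windows of 300 bases, 250 before and 50 after the start, on both strands. RefSeq windows (GRCh38.p14) were matched for 8 of the 10 genes, with 17 windows in all, which overlap at GATA3. The GATA motif, searched as AGATAA or TGATAA, was in 0 of the 17 windows and in 16.3% of all 35116 windows. The AP-2 motif GCCNNNGGC was in 8 of the 17, from 4 genes, and in 23.2% of all. CCAAT was in 8 of the 17, from 5 genes, and in 34.6% of all, and 10.8% of all windows held at least 2 matches, as the window shared by GATA3-AS1 and GATA3 does. Windows that overlap at the GATA3-AS1 and GATA3 starts hold both AP-2 and CCAAT matches. Both counts of 8 therefore include the same stretch more than once and are no measure of enrichment. The forkhead motif TGTTTAC was in 1, that of MYB, and in 3.42% of all, and the MYB motif CAACTG in 1, that of FOXA1, and in 11.4% of all. The palindromic estrogen response element, held by 0.057% of all windows, and the XBP1 motif TGACGTGG, held by 0.729%, were in 0 of the 17. A match is a string of letters and not a site.

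The genes whose profiles were most like that of GATA3 were sought among 14712 genes well above background on all 6 arrays, by the root mean square difference of log2 profiles, each taken from its own mean over 6 arrays. They were SELENBP1 at 0.15, KIAA1324 at 0.17, and CXXC4, ANXA9 and MZB1 at 0.18. SELENBP1, a selenium-binding protein, was 36-fold lower in pLB. Among the 5 profiles most like that of FLJ45983 were those of PLA2G16 at 1.35, FAM65C at 1.46 and MFSD7 at 1.75, with log2 fold changes of -7.70, -7.61 and -6.89. With 2 lines, likeness mainly reflects the size of the difference between them.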

How the data were processed

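RNA of 3 pLUM and 3 pLB sorts was profiled on Agilent 4 x 44K arrays. The authors deposited Agilent Feature Extraction 10.10.1.1 output, which holds a linear intensity for every spot, corrected for background within the array and not normalized between arrays, with flags. Spots flagged as outliers, 296 to 387 on an array, were removed, log2 of the intensity was taken relative to the array's 75th percentile, and the mean over a probe's spots was used. All 23105 tested probes were fitted with limma 3.58.1 (R 4.3.3), with Benjamini-Hochberg adjustment over all of them. A gene was represented by its tested probe with the highest mean, and folds are fitted unless given as bounds. The number of arrays limits the precision.

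Positions are hg19 as in the files; current names come from RefSeq (GRCh38.p14), which matched 14401 of 17670 tested genes. The members and lists were chosen with earlier results of these data known. From each list, all genes were counted and up to 4 called genes with the largest change in each direction were named with values, with others named after their values were seen. Neighbours were named if called, nearest first, up to 3 a member. Alternatives changed the background correction (normexp with offset 50), scaling, filter, threshold, test, block or probe rule, or left out 1 array. Some genes that meet these rules are not reported here.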

Additional observations from a re-analysis of the deposited data

How the results depend on the processing

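In all 18 alternatives, 8 or 9 of the 10 genes were lower in pLB, and no member probe changed direction. Without the 2-fold threshold 9 were lower and 1, TFAP2B, was higher. By the methods' test at 2-fold and their p threshold, 8 were lower and 0 higher, with and without Benjamini-Hochberg adjustment. The FLJ45983 change minus the GATA3 change was -5.17 to -4.50 in 13 alternatives. Among related genes, 22 were lower and 20 higher, with 17 to 30 and 14 to 24 across the alternatives. Of the 43 neighbours, 6 were higher, but 3 with normexp background correction, 3 with median scaling, 11 without the 2-fold threshold and 3 to 6 with 1 array left out. The cause of these shifts was not tested. Normexp moved the median log2 fold change of all genes from 0.04 to -0.21 and spike-in scaling to 0.23, and genes called higher went from 4016 to 2578 with normexp. Spike-in scaling, the alternatives for the neighbours and the 4 arrays of slide 1 were chosen after the data had been seen.

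The labels do not say whether same-numbered arrays were processed together. Deviations from the mean of each line correlated at -0.265, -0.095 and -0.217 for same-numbered arrays and at -0.029 to 0.25 for the others. With 3 arrays per line, taken from their own mean, these values cannot settle whether arrays were paired. With a replicate block, 8 members were lower and 0 higher, 22 related genes were lower and 20 higher, and 17 neighbours were lower and 6 higher, as without it, and 4008 instead of 4068 of all genes were lower. Dim probes, such as the second probes of FOXA1, MYB and TBX3, limit what can be said of those transcripts, since their pLB signal is at or near background.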
